A study of Homo sapiens with 16 samples.

Results

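Purified genomic DNA of the human embryonic kidney cell line HEK293T was immunoprecipitated with the quadruplex antibody 1H6 in 2 states, native (G4 DNA-IPnat) and heat-denatured (G4 DNA-IPdenat). The paper states no shRNA or transfection for the cells that gave this DNA. The peaks of the 2 states were compared region by region. A denatured peak was called shared when it overlapped a native peak by at least 1 bp and denatured-only when it did not, and native peaks were split the same way into shared and native-only. Of 15709 denatured peaks, 196 were shared and 15513 were denatured-only. Of 226 native peaks, 208 were shared and 18 were native-only. These 15935 peaks came from a series of 9 peak lists with 40118 peaks in all.

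The DNA of both samples had been purified away from protein, and no chromatin was present in either. For G4 DNA-IPdenat it was heated at 95 °C for 5 min and snap-chilled before the antibody was added, and for G4 DNA-IPnat it was not. Both samples were then crosslinked with formaldehyde, sequenced as PCR-amplified libraries on a MinION and compared with one common input of the same genomic DNA without immunoprecipitation. Each library was a pool of 4 replicates, so each state had 1 library, no spread between replicates could be measured and no test was possible. The authors called the denatured peaks with a bandwidth of 3000, without a local background and with a broad cutoff of 0.01, and the native peaks with a bandwidth of 300, so the treatment and these settings cannot be told apart. By the paper's sequencing summary the native library also had longer reads on average, fewer reads and a higher share of mapped reads. Treatment cannot be told apart from these differences either.

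A G-quadruplex is a stack of guanine tetrads that a single DNA strand can fold into where runs of guanines lie close together. Melting and rapid cooling leave much of the DNA single-stranded, while repeated sequences find partners again more readily than unique ones. Several of the families met below are repeats: LINE-1, a retrotransposon with its own reverse transcriptase and endonuclease; alpha satellite, the tandem repeat of human centromeres; pentamer satellites built from variants of a 5-base word in pericentromeric DNA; and the ribosomal RNA gene arrays.

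The sequences below, all from hg38 and on the plus strand, show the kinds of DNA that the results turn on. Alpha satellite lay in both classes, and 2 consecutive units of 171 bp are shown for the strongest peak of each class, with capitals at positions that are identical in both units when they are compared base by base without gaps. The shared peak lay on chromosome 1 (units at chr1:123617790-123617960 and chr1:123617961-123618131) and the denatured-only peak on chromosome 19 (chr19:27146637-27146807 and chr19:27146808-27146978). The units matched at 68 and 44 of 171 positions, respectively. An ungapped comparison loses the matches behind any inserted or deleted base, so these counts do not measure how alike the units are. Over each whole peak the best distance was 340 and 341 bp, close to 2 units, with 71.0 and 54.4% of bases matching.
Shared, unit 1: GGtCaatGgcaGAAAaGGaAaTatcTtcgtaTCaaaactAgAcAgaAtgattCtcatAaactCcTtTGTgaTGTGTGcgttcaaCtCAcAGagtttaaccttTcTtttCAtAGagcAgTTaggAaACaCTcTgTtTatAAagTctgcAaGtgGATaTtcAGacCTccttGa
Shared, unit 2: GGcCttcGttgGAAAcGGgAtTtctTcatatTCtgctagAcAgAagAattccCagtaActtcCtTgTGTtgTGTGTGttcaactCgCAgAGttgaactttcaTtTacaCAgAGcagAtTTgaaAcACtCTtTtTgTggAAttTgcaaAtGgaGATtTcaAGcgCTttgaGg
Denatured-only, unit 1: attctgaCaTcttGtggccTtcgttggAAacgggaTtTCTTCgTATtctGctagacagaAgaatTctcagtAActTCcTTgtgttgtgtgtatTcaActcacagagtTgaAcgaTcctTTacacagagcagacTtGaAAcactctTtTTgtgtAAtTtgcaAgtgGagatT
Denatured-only, unit 2: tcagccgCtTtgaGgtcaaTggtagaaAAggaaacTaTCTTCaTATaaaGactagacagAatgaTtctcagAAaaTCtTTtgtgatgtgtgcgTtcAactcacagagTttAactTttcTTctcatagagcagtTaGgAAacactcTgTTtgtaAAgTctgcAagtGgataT

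Pentamer satellites carried the longest shared peaks, and capitals mark the word ATTCC or its complement GGAAT. The first stretch is the centre of a shared peak at chr1:143241783-143241902 and the second that of a native-only peak at chr5:49656414-49656533. The third is a 4-base repeat from the strongest denatured-only peak of that kind, at chr1:239975316-239975435. This stretch holds no run of 3 G or C, but many peaks of that kind do, as given below.
Pentamer satellite, shared: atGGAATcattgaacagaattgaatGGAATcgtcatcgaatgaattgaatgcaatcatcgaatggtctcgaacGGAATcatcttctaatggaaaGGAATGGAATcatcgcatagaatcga
Pentamer satellite, native-only: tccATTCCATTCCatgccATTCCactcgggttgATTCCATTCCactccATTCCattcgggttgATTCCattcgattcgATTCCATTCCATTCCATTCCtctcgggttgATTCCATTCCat
4-base repeat, denatured-only: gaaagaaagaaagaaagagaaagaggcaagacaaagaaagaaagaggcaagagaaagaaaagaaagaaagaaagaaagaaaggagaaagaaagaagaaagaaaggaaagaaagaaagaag

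The last set shows guanine-rich regions, with runs of 3 or more G or C in capitals. ADAP1 (chr7:905433-905552) and DUX4 (chr4:190177726-190177845) were shared. MUC3A (chr7:100957831-100957950), TMEM242 (chr6:157310706-157310825), DANT2 (chrX:115732611-115732730) and an 18S ribosomal RNA gene (chr21:8209785-8209904) were native-only. Each window is the 120 bases with the most GGG or CCC triplets in its peak.
ADAP1: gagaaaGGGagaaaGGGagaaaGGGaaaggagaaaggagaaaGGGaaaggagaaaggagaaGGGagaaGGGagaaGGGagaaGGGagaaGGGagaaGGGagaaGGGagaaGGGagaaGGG
DUX4: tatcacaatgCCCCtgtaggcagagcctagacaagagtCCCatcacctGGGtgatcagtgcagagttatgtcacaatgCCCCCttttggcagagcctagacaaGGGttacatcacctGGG
MUC3A: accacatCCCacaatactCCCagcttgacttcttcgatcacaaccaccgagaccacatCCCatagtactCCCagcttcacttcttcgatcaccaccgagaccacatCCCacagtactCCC
TMEM242: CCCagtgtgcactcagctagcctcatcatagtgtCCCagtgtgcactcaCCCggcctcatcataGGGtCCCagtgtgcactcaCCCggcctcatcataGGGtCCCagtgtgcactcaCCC
DANT2: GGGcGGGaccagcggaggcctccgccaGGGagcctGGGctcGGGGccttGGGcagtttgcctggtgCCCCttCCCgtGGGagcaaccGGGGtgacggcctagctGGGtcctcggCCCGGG
18S ribosomal RNA gene: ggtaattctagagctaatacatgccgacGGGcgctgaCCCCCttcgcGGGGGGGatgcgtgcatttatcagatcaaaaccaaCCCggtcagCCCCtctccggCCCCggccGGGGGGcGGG

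Most native peaks were found again after denaturation, while most of the denatured list lay in regions without a native peak. The share of native peaks with a denatured peak was 92.0% (exact Clopper-Pearson 95% interval 87.7 to 95.2%), and the share of denatured peaks with a native peak was 1.25% (1.08 to 1.43%). Intervals here and below cover counting error only. Denatured-only peaks covered 32134986 bp, or 1.10% of the known genome, against 1264539 bp for shared denatured peaks and 676935 bp for all native peaks. Of the native bases, 74.4% lay in denatured peaks, and 133 native peaks lay in them whole. These shares moved with the overlap asked for: with 70% of a peak's own length they were 77.0% and 0.452%. With both lists at a -log10 q of at least 4 the denatured share was 2.40%. With tandem-repeat peaks removed from each list before the overlap, the shares were 55.2% and 0.254%. A peak then counted as unshared when its only partner had been removed. In the full lists 161 of 208 shared and 7 of 18 native-only peaks were tandem repeats, so 55.2% is not the share of non-tandem native peaks that overlapped any denatured peak.

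Shared peaks were the stronger part of the denatured list. Their median fold enrichment over the input was 10.7 (quartiles 8.24 and 12.9, range 4.41 to 24.3), against 4.65 (4.28 and 5.34, 3.90 to 21.9) for denatured-only peaks, so that the medians differed 2.30 times. The classes overlapped, since 106 denatured-only peaks (0.683%) exceeded the shared median and 4 shared peaks stood at or below the denatured-only median. Shared peaks were also longer, with a median of 3132 bp against 1706 bp, but an overlap of 1 bp is met more easily by a long peak, and with 70% of a peak's own length asked for the order turned (1672 against 1715 bp). The share of denatured peaks with a native peak was 0.0317% at folds under 4.5, 1.86% from 6 to 8, 29.7% from 10 to 12 and 58.3% from 16 on.

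**Figure D1:**
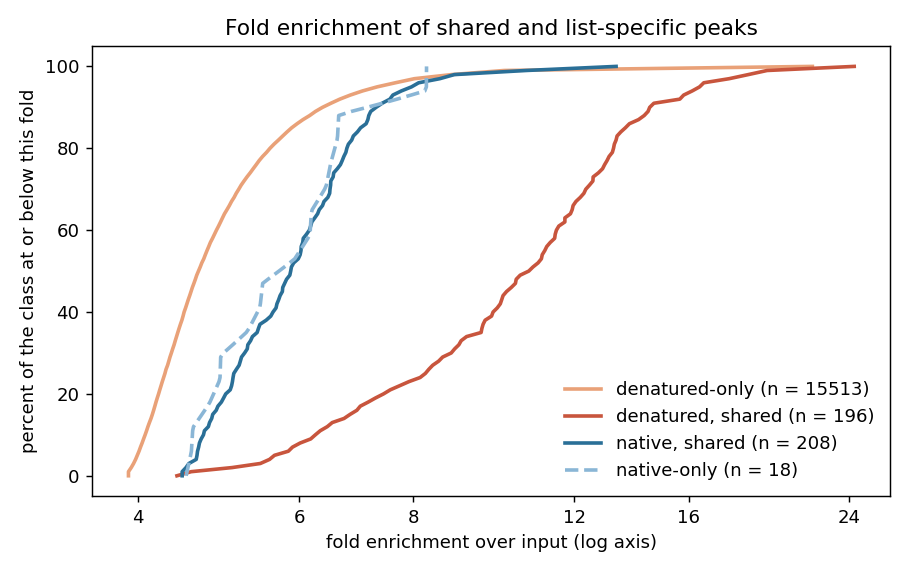
Cumulative distribution of the fold enrichment over the input (log axis) in the 4 classes of peaks; the vertical axis gives the percentage of the class at or below a fold. The denatured-only curve lies furthest left (median 4.65), both native curves lie close together (5.87 for shared and 5.70 for native-only) and the shared denatured curve lies furthest right (10.7).

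In the native list the classes did not separate in this way. The median native fold was 5.87 in shared and 5.70 in native-only peaks, and the median lengths were 1441 and 1406.5 bp. Shared regions formed 224 pairs of a denatured and a native peak, and the denatured fold was the higher in 211 of them. The median ratio of the denatured to the native fold was 1.74 (quartiles 1.41 and 2.08). Folds of the 2 lists were each scaled to their own library by the peak caller, which limits what this ratio measures.

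The 2 classes of denatured peaks lay in different repeats. LINE-1 made up 66.6% of denatured-only peaks (10335 peaks, 65.9 to 67.4%) and 3.06% of shared peaks (6 peaks, 1.13 to 6.54%), where a LINE-1 peak is one with more than 50% of its bases aligned to an intact LINE-1 copy. Among 29105 genome tiles of 2 kb, taken at even steps, the share was 6.32%. The copy was itself reached through the 24-base words most common in denatured-only peaks outside tandem repeats. All these shares, that of tiles included, thus count only DNA that aligns to an element picked through the denatured-only class. In 8582 of the denatured-only LINE-1 peaks at least 95% of the bases aligned, and 73.3% of all denatured-only bases were LINE-1. In the native list 3 of 226 peaks were LINE-1.

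Satellites made up most of the shared peaks. Alpha satellite, recognised by a match 1 or 2 units of 171 bp further on, accounted for 46.9% of shared and 11.9% of denatured-only peaks, against 2.38% of tiles. Pentamer satellites, with more than 10% of their bases in ATTCC or GGAAT, accounted for 31.1% and 0.393%, against 0.0859% of tiles. By number alpha satellite was nevertheless mostly denatured-only, with 92 shared peaks of 1941, whereas 61 of 122 denatured pentamer peaks were shared.

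Repeat types also differed among strong peaks. Of all 625 denatured peaks with a fold of at least 8, 149 (23.8%) overlapped a native peak. Among them, 55 of 61 pentamer peaks (90.2%, 79.8 to 96.3%), 64 of 277 alpha-satellite peaks (23.1%, 18.3 to 28.5%), 5 of 66 LINE-1 peaks (7.58%, 2.51 to 16.8%) and none of 59 4-base repeat peaks (0%, up to 6.06%) did so. Pentamer satellites thus stood above the share of all strong peaks, LINE-1 and 4-base repeats below it and alpha satellite at it. Length was not held equal in this comparison. Over denatured peaks of any fold the median was 3671 bp for pentamer satellite, 2095 bp for LINE-1, 1287 bp for alpha satellite and 660 bp for 4-base repeats. The part of length in the ranking was not tested. Alu-containing (14.3%, 6.75 to 25.4%), other tandem (15.9%, 8.24 to 26.7%) and other peaks (16.7%, 5.64 to 34.7%) had intervals that overlapped that of alpha satellite. LINE-1 peaks stood close to the detection limit. Their median fold was 4.47, and among denatured-only peaks with a -log10 q of at least 4 LINE-1 made up 28.4% (1129 of 3973), with 26.1% alpha satellite and 7.95% 4-base repeats. The excess over the 6.32% of tiles was thus present at the higher limit but smaller.

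Within LINE-1, denatured-only peaks lay over the coding part of the element. The copy used for alignment, at chr1:180866798-180872841 on the minus strand, is 6044 bp long, with a first open reading frame (ORF1, an RNA-binding protein) of 338 codons and a second (ORF2, the endonuclease and reverse transcriptase) of 1302 codons. The genome held 2008 copies aligned to it over at least 5500 bp. Of these, 1299 (64.7%, 62.6 to 66.8%) carried a denatured-only peak and 1 carried a native peak. Between 4 and 18 copies carried a peak in each of the other 7 libraries.

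Coverage rose along ORF1, was highest in the first part of ORF2 and fell towards the 3′ end. In bins of 200 bp, it was 1.65% at the first bin, 20.7% at 1001 to 1200, 48.3% at 2601 to 2800, 32.4% at 3801 to 4000 and 5.05% at 5801 to 6000. The guanine-rich parts of the element were not the covered ones. The 4 bins before ORF1 held 53 triplets in 800 bases of the reference copy and were covered in at most 3.87% of copies, and the most covered bin held 1 triplet. The reference copy has 26.6 triplets per kb and a canonical quadruplex signature (at least 4 runs of 3 G with loops of 1 to 7 bases, on either strand), and 9.68% of denatured-only LINE-1 peaks held one.

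The share of full-length copies with a denatured-only peak fell with their similarity to the intact copy. It was 83.1% (77.7 to 87.7%) at 95 to 96% identity, 71.3% at 96 to 97%, 57.4% at 97 to 98%, 50.6% at 98 to 99% and 44.4% (37.0 to 52.0%) from 99% on. Of 152 copies with both reading frames open, 61 (40.1%, 32.3 to 48.4%) carried a peak, against 66.7% (64.5 to 68.8%) of the 1856 others. The authors kept only uniquely aligned reads, and the part of mapping in this trend was not tested. Over all denatured-only LINE-1 peaks the median identity was 93.6%, against 84.1% in genome tiles that were mostly LINE-1.

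The 6 shared LINE-1 peaks lay at 3 places. In the REXO1L cluster on chromosome 8, a tandem array of exonuclease-like genes and pseudogenes, 3 peaks had denatured folds of 11.5, 9.78 and 7.03. On chromosome 11, 2 peaks in a lncRNA gene (ENSG00000250519) had folds of 12.6 at chr11:94233608-94234566 and 14.2 at chr11:94237203-94239718. Both overlapped the same native peak of fold 5.18, and the first touched it by only 17 bp, the smallest overlap in the data. The sixth, at chr21:9253450-9256429, had a fold of 10.7.

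Denatured peaks in short tandem repeats of 4 bases had no native partner. There were 372 such peaks, of which none was shared (0%, up to 0.987%), and 328 (88.2%) were built on the purine-rich word AAAG or its complement. Their median fold was 6.31 and their median length 660 bp. At the median they held 20.4 triplets per kb. A canonical signature was present in 131 of them (35.2%), against 8.92% of all denatured-only peaks and 16.5% of genome tiles. The strongest, on chromosome 1, reached 15.8. In the other 7 libraries 370 of the 372 had no peak. The native list held 1 peak of this type, of fold 6.48 at chr21:8386199-8387647, and it overlapped a longer denatured peak of another type.

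The rule did not use the sequence, and denatured-only peaks held fewer guanine runs than the genome tiles. Median GC content was 38.5% in denatured-only, 39.2% in shared and 52.4% in native-only peaks, against 39.7% in genome tiles. GGG or CCC triplets numbered 17.7 per kb in denatured-only and 7.65 per kb in shared peaks, both below the 22.0 per kb of tiles, and 42.1 per kb in native-only peaks. A canonical signature was present in 8.92% of denatured-only peaks (8.48 to 9.38%), 15.3% of shared peaks (10.6 to 21.1%), 5 of 18 native-only peaks and 16.5% of tiles. In the central 1000 bp, which evens out most of the difference in length, the shares were 3.81% (3.51 to 4.12%), 6.12% (3.20 to 10.5%), 5 of 18 and 9.12% (8.79 to 9.45%). Without tandem repeats the order of the classes in triplets turned, with 33.5 triplets per kb in 34 shared and 18.1 in denatured-only peaks.

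The ribosomal RNA genes on chromosome 21 were divided between the classes by position. RefSeq (GRCh38.p14) places 3 copies of the 45S gene, the precursor of the 18S, 5.8S and 28S RNAs, between chr21:8205988 and chr21:8446572. Native peaks covered 89.4, 89.5 and 80.0% of the 3 copies of 18S (RNA18SN2, RNA18SN3 and RNA18SN1), with folds of 6.63, 6.61 and 5.93, and no denatured peak touched them. Over the whole 45S genes RNA45SN2, RNA45SN3 and RNA45SN1, native peaks covered 40.1, 19.3 and 44.4% and denatured peaks 0, 0 and 9.53%. Only uniquely aligned reads were kept, and the denatured reads were shorter on average. The part of mapping and read length in this division was not tested.

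In the spacers behind these genes the denatured peaks were wide and strong. Over the 30000 bp after each gene, in the same order, native peaks covered 88.1, 95 and 59.0% and denatured peaks 70.2, 73.1 and 59.3%. Denatured folds there ran from 12.3 to 17.6, and native folds in the cluster from 4.78 to 7.07. All 4 native-only peaks of the cluster lay in 18S or 28S sequence, and 8 of the 9 shared peaks classed as Alu-containing in the whole genome lay in this cluster. In the array of 17 5S genes on chromosome 1 (chr1:228610268-228646158), 5 denatured peaks had folds of 4.71 to 6.22, and 3 of them met native peaks of 4.71 to 5.31.

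Of the other 14 native-only peaks, 4 were pentamer satellite, 3 were other tandem repeats and 7 met none of the repeat definitions used here. The latter 7 were still repeated DNA. From 67.4 to 98.6% of their 16-base words occurred at least 10 times in the genome, against a median of 33.7% in genome tiles. Tandem units longer than 400 bp were not searched for. At the end of chromosome 1 a peak of 441 bp had a native fold of 8.27 and 186 triplets per kb, in a telomere array with 63 exact copies of TTAGGG or its complement. Telomere arrays at the ends of chromosomes 3 and 12 instead had denatured-only peaks, with folds of 14.9 and 8.95 and 92 and 74 copies of the word. In DANT2, a lncRNA gene at the DXZ4 macrosatellite of the X chromosome, 2 native-only peaks had folds of 4.57 and 6.16, GC contents of 66.7 and 68.6% and 87.9 and 86.9 triplets per kb.

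MUC3A, a membrane-bound intestinal mucin, had a native-only peak of fold 5.44 at chr7:100957571-100958991, on a tandem repeat with a unit of 51 bp, and the nearest denatured peak was 810862 bp away. In an intron of TMEM242, a native-only peak of fold 5.27 at chr6:157310504-157313061 lay on a repeat with a unit of 34 bp. Near USP17L24, one of a tandem family of deubiquitinase genes, the fold was 5.47. An intron of the lncRNA gene ENSG00000267605 on chromosome 19 held a peak of fold 4.59, and the REXO1L cluster held one of 4.51. On chromosome 4 (chr4:49327002-49327864) and chromosome 22 (chr22:11698561-11699619) intergenic peaks had folds of 4.92 and 4.91. The 4 native-only pentamer peaks, on chromosomes 5, 10 and 17, had folds of 8.27, 6.50, 6.19 and 6.42.

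None of the 18 native-only peaks lay within 1 kb of a denatured peak, but 10 lay within 10 kb. The closest, in a 28S gene, was 1107 bp from a denatured peak of fold 16.5, and the next, a pentamer satellite on chromosome 17, was 1311 bp from one of 12.1. On the other side of the limit, the shared pair with the second smallest overlap, 29 bp, lay in the REXO1L cluster with folds of 9.78 and 4.80.

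Of the 10 strongest shared peaks, 4 were alpha satellite, 3 were other tandem repeats, 2 were Alu-containing and 1 met none of the repeat definitions. The highest denatured fold, 24.3, lay at chr7:905358-906797 at a start site of ADAP1, a GTPase-activating protein for ARF. Its sequence held 109 triplets in 1440 bp, the native fold was 6.95, and ADAP1 was the only protein-coding gene with a shared peak within 1 kb of a start site. A peak in an intron of DUX4, a homeobox gene on chromosome 4, had 18.5 denatured and 6.38 native. At or beside the DUX4-like genes on chromosome 10, 2 intergenic peaks had 11.2 and 15.7 denatured and 6.50 and 7.96 native. The denatured peaks at DUX4 and on chromosome 10 were other tandem repeats, with GC contents of 48.0, 47.1 and 47.8%. Their repeat family was not identified. Alpha-satellite peaks on chromosomes 1, 3, 7 and 5 had 20.8, 19.4, 19.3 and 17.0 denatured and 4.69, 7.96, 5.06 and 5.44 native. A peak on chromosome 22 (chr22:12691764-12692965) had 18.4 denatured and 8.14 native. One at the lncRNA gene FAM230C had 16.5 and 7.13, met none of the repeat definitions and had a GC content of 34.1%. The remaining 2 of the 10 strongest lay in the ribosomal spacers.

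All 10 of the longest shared peaks were pentamer satellite. They ran from 23882 to 102496 bp, on chromosomes 1, 10, 17, 20, 21 and 22, with denatured folds of 5.90 to 13.4. The longest, at chr21:10651756-10754251, held 5 native peaks, and one on chromosome 17 (chr17:26782509-26880087) held 7. The strongest of the 10, at chr1:143221199-143262488, is the one whose centre is printed above.

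Among denatured-only peaks, those with the highest folds were mostly alpha satellite. Of the 10 highest, 7 lay in alpha satellite on chromosomes 19, 1, 6, 5 and 7, with folds of 16.3 to 20.9. The highest of all, 21.9 at chr9:64123246-64126317, was an Alu-containing intergenic peak. The other 2 were LINE-1 peaks, of 18.1 near C1orf141 and of 17.3 in an intron of ARHGAP24.

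Shared peaks were mostly intergenic, and denatured-only peaks were spread between introns and intergenic DNA. Intergenic DNA held 86.7% of shared peaks (81.2 to 91.1%) and 52.9% of denatured-only peaks (52.1 to 53.7%), against 38.2% of known genome bases. Introns held 4.08% and 44.3%, against 51.3% of bases. Within 1 kb of a transcript start lay 7.14% of shared peaks (3.96 to 11.7%) and 1.88% of denatured-only peaks (1.67 to 2.10%), against 7.21% of bases. Among denatured-only peaks, those in LINE-1 were intronic in 50.3% and intergenic in 47.4%, and 1847 of the 1849 in alpha satellite were intergenic. Without tandem repeats the shares of shared and denatured-only peaks came to 50% and 47.4% intergenic and to 32.4% and 1.94% at starts. With protein-coding genes alone as annotation, 0.510% of shared and 0.541% of denatured-only peaks lay at a start.

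Protein-coding genes with many denatured-only peaks were long genes. Of 19970 such genes, 2697 carried at least 1 denatured-only peak and 4 carried a shared peak, and the median length was 139 kb with a denatured-only peak and 21.5 kb without one. In gene bodies there were 0.371 denatured-only peaks per 100 kb, against 0.533 in the whole known genome, and 72.1% of the 4854 peaks in them were LINE-1. IL1RAPL2, an interleukin-1 receptor family member on the X chromosome, had the most, 24 peaks of which 20 were LINE-1. DNAH14, an axonemal dynein, had 23 with 18 LINE-1, CTNNA3, an alpha-catenin, had 21 with 20 LINE-1, and DOCK3, a guanine nucleotide exchange factor, had 18 with 16 LINE-1. RABGAP1L (17), TEX11 (16), TTC28 (15), GPC5, ULK4 and ZC3H12B (14 each) completed the 10.

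Per length, 7 of the 10 densest genes lay on chromosomes X and 1. Among genes of at least 100 kb with at least 5 denatured-only peaks, CHIC1 had 5.65 per 100 kb, NRG4 had 4.85, DNAH14 4.57, MSH4 4.30, CATSPERE 4.28, ATRX 4.27, TEX11 4.21, HFM1 4.16, MCM9 4.11 and CD163L1 3.75. MSH4, HFM1 and TEX11 act in meiotic recombination, and MCM9 is a helicase of homologous repair. These are 10 genes picked for their density, and nothing was tested about their functions.

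Few denatured-only peaks lay at starts of protein-coding genes, 84 peaks at 84 genes. Among those with the highest folds, CYP4F3, a leukotriene-metabolising cytochrome P450, had 10.5, TINCR 9.23, WDR93 8.48, APOBEC3A, a cytidine deaminase, 7.90 on a 4-base repeat, EBI3 7.75, TTC3 6.94, GFOD1 6.87, TBC1D8B 6.74 on LINE-1 and KREMEN1 6.64.

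Gene lists were read against all protein-coding genes, of which 13.5% had a denatured-only peak in the gene body and 0.421% had one at a start. Of 21 genes with a well-known promoter quadruplex, 1 had a denatured-only peak, SRC (5.51, in the gene body), and none had any peak at its start, which is no result for 21 genes against that background. None of 39 HOX genes, short homeobox genes in clusters, had a peak. They span 400 kb in all, so at 0.371 peaks per 100 kb over all protein-coding genes this is no result either. Of 14 helicases that unwind quadruplexes, ATRX had 12 denatured-only peaks (7 LINE-1, highest fold 7.95), BLM had 1 (5.56) and BRIP1 had 1 (4.20). These 3 of 14 (21.4%) held 14 peaks, 1.33 per 100 kb of the list against 0.371 over all protein-coding genes, and 12 of the 14 lay in ATRX.

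The list of 16 genes at common fragile sites, which are very long, had denatured-only peaks in 14, 83 peaks in all with 72 in LINE-1. That is 0.330 per 100 kb, against 0.371 over all protein-coding genes, and CTNNA3 alone held 21 of them. CNTNAP2 had 7, MACROD2 4 and IMMP2L 3. Of 26 glutamate receptor subunits 12 had 29 peaks (0.285 per 100 kb), among them GRIA3 with 5, GRIK4 with 3, GRM7 with 2, and GRIK1 and GRM5 with 1 each. Of 53 clustered protocadherins, whose gene bodies overlap so that a peak counts for several of them, 13 had peaks, with 2 each in PCDHA1 to PCDHA4 (highest fold 5.92, 0.333 per 100 kb). Of 14 mucins, MUC16 (5.38), MUC19 (4.69) and MUC7 (4.64) had 1 denatured-only peak each (0.406 per 100 kb), and MUC3A had the native-only peak. No gene on any of the 7 lists had a shared peak. Only 4 of all 19970 protein-coding genes had one, so this absence is no result about the lists.

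The X chromosome carried the most denatured-only peaks for its length, and LINE-1 accounted for most of them. It had 12.0 per Mb of known sequence (1857 peaks, 1475 of them LINE-1), followed by chromosome 1 with 8.20 and chromosome 20 with 6.43, and the lowest values were 2.65 on chromosome 17 and 2.77 on chromosome 16. Over 23 chromosomes, LINE-1 peaks per Mb went with the LINE-1 content of the chromosome's tiles (Pearson r = 0.870, Spearman's rank coefficient = 0.731, and r = 0.707 without the X chromosome), as a description over chromosomes of 1 library. For the other denatured-only peaks r was -0.325, or -0.588 without the X chromosome, and chromosomes 19, 20 and 22 had the most of them, 4.41, 4.44 and 3.55 per Mb.

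The chromosomes also differed in how many of their full-length LINE-1 copies carried a peak. The share of full-length copies with a peak was 86.3% of 161 copies on the X chromosome and 76.1% of 134 on chromosome 1, but 42.9% of 168 on chromosome 4. The number of chromosome copies in these cells was not measured here. Shared peaks followed another order, with 35 on chromosome 4, 24 on chromosome 1, 19 on chromosome 21 and 18 on chromosome 10, and 1 on the X chromosome.

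Shared regions were found in most other libraries of the series and denatured-only regions in few. The other 7 libraries were prepared from HEK293T chromatin. For G4-ChIP the antibody was added after fixation and shearing. For CTnuc, KDnuc, CTut, KDut, CTtr and KDtr it was added to briefly fixed, permeabilised cells, which were then crosslinked again. These cells carried a non-targeting (CT) or a CGGBP1-targeting (KD) shRNA. Control and carrier plasmid DNA was transfected into CTtr and KDtr cells, or added to CTut and KDut lysates after incubation with antibody. CTnuc and KDnuc were sequenced on an IonTorrent and the rest on a MinION, so platform differs between these libraries too. Over all denatured peaks, the share with a peak in each library was 5.46% for CTnuc, 7.37% for KDnuc, 2.05% for G4-ChIP, 10.1% for CTut, 6.88% for KDut, 6.70% for CTtr and 5.78% for KDtr. For shared peaks it was 59.2, 71.4, 74.5, 99, 99.5, 100 and 99.5%, in the same order, and for denatured-only peaks 4.78, 6.56, 1.13, 8.93, 5.71, 5.52 and 4.60%. Of denatured-only peaks, 87.8% (13613) had no peak in any of the 7, and no shared peak was without one.

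The repeat types of the denatured-only class also differed here. Of LINE-1 peaks 97.1% had no peak in any of the 7 libraries, and of 4-base repeats 99.5%, but of denatured-only alpha-satellite peaks a peak was present in 44.7% for KDnuc, 55.8% for CTut and 4.49% for G4-ChIP. The native-only regions were found throughout, with all 18 in CTut, KDut, CTtr and KDtr, 14 in KDnuc and G4-ChIP and 13 in CTnuc. Shared native peaks were found there too. Of these 208 peaks, 206 had a peak in CTut and in KDut and 207 in CTtr and in KDtr. In KDnuc it was 130 (62.5%), in G4-ChIP 153 (73.6%) and in CTnuc 113 (54.3%). The intervals of the native-only and shared native shares overlapped in every library, so these counts do not set the native-only class apart. Shared peaks are the stronger ones in the denatured list, and the part of peak strength in the shares of the denatured classes was not tested.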

How the data were processed

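Genomic DNA of HEK293T cells was immunoprecipitated with the 1H6 antibody and sequenced on a MinION. The authors aligned reads to hg38 with minimap2, kept unique alignments and called broad peaks with MACS2 against the input (versions not given in the sources used here). Each peak in the deposited lists has a fold (the ratio of signal to the scaled input), a -log10 p-value, a -log10 q-value and a score of 10 times the -log10 q-value, all made by the authors. The lists hold no read counts, and the reads and the input were not analysed here.

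Peaks on chromosomes 1 to 22 and X were intersected by at least 1 bp in Python 3.11.15 (pandas 2.3.3, numpy 2.4.6, pysam 0.24.0), with exact Clopper-Pearson 95% intervals from scipy 1.17.1. Settings came from GENCODE 44, with 1000 bp around transcript starts taken first. Every peak was given 1 repeat type, in the order LINE-1, pentamer satellite, alpha satellite, ribosomal RNA gene, 4-base repeat, other tandem repeat (over 50% of bases matching those at the best distance up to 400 bp) and Alu-containing. LINE-1 was aligned with blastn 2.17.0 (E-value 1e-10) to an intact copy reached through 24-base words common in denatured-only peaks. All 11 of 11 checks on simulated data were recovered.

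Named by rule were the 10 strongest and 10 longest shared peaks, the 10 strongest denatured-only peaks, every native-only peak, the 10 genes with the most denatured-only peaks in number and per 100 kb, the 10 strongest at gene starts, every gene with a shared peak at its start, and up to 5 members of each gene list. The ribosomal, DUX4, REXO1L and DANT2 clusters, chromosome ends, 4-base repeats and LINE-1 copies were chosen for description after their values were seen. The members and lists were chosen with earlier results of these data known. The alternatives were a stricter q, other overlaps, removal of tandem repeats or of chromosome 4, other gene settings and other limits for repeats. A few items that these rules name are not reported here.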

Additional observations from a re-analysis of the deposited data

How the results depend on the processing

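Of 136 alternatives tried for 22 values, 76 stayed within the interval of the value reported and 60 did not. The order of shared against denatured-only peaks was the same in 59 of 62 comparisons. The exceptions were the length with an overlap of 70% of a peak's own length, the triplets without tandem repeats and the share at gene starts with protein-coding genes only. The cause was not tested. No paired analysis was possible because each group has 1 library.

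With both lists at a -log10 q of at least 4, 2.40% of denatured peaks had a native peak. Shared and denatured-only medians were then 11.8 and 6.10 for fold, 40.3 and 38.8% for GC and 9.25 and 16.2 triplets per kb. Tandem repeats were 73.0 and 35.4%, and denatured-only peaks had a median length of 905 bp, with 62.6% intergenic, 34.2% in introns, 2.19% at starts and, with the other 7 lists at the same limit, 73.9% in none of them.

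With 70% of a peak's own length, 77.0% of native and 0.452% of denatured peaks were shared, and shared medians were a fold of 12.1, 1672 bp, 40.6% GC and 10.5 triplets per kb. Without tandem repeats, removed from each list before the overlap, 55.2% of native and 0.254% of denatured peaks had a partner left. The medians of shared and denatured-only peaks were then 11.5 and 4.57 for fold, 48.3 and 38.4% for GC and 33.5 and 18.1 triplets per kb, and 1816 bp for denatured-only length. Intergenic were 50 and 47.4%, at starts 32.4% of shared, in introns 49.6% of denatured-only peaks, and 94.8% of denatured-only peaks were in none of the other 7 lists. Without chromosome 4, 1.08% of denatured peaks were shared and the denatured-only GC was 38.5%.

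With protein-coding genes only, 98.5 and 68.7% of shared and denatured-only peaks were intergenic, 1.02 and 30.3% in introns and 0.510 and 0.541% at starts. With starts of 3 kb, 12.2 and 7.61% were at starts, and denatured-only peaks were 51.0% intergenic and 40.6% in introns. By the centre base, 45.6% of denatured-only peaks were in introns and 0.599% at starts. In the central 1000 bp, denatured-only GC was 38.4% with 17.0 triplets per kb. Tandem limits of 40 and 60% gave 88.3 and 50% of shared and 18.4 and 7.70% of denatured-only peaks.

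The alternatives for LINE-1 were chosen after seeing the data. Limits of 30 and 70% gave 69.4 and 63.1% of denatured-only peaks. Without tandem repeats LINE-1 was 17.6% of shared and 77.2% of denatured-only peaks, and at a -log10 q of at least 4, with classes set again on the shortened lists, 1.00% and 27.9%. Depth limits every absence here, since a region without a peak may lie below the caller's threshold.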
